A study of Homo sapiens with 6 samples.

Results

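Kinesins are motor proteins that hydrolyse ATP to move along microtubules or to change their ends. The family members described here are all genes whose platform symbol is KIF followed by a number and an optional letter, or KIFC1 to KIFC3, which left out the kinesin-associated protein gene KIFAP3. The rule found 41 genes of the 19775 genes named on the array, read by 85 of its 54613 probe sets, and it used symbols only. Of these genes, 12 were grouped as mitotic kinesins, 15 as transport kinesins and 14 as other kinesins. Most of the other kinesins have roles in cilia or centrioles, mixed roles or little known function. Class counts and medians below hold for this grouping, in which KIF2A, KIF2B and KIF25 were placed among the other kinesins. KIF4B and KIF28P have no probe set with a single gene symbol and were not analysed here.

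Expression was measured in MCF-10A, an immortalized and non-transformed human mammary epithelial cell line. The 3 CRB3-expressing samples came from cells infected with a pNG retrovirus carrying amino-terminally myc-tagged human CRB3, a polarity protein of the apical membrane, and the 3 vector control samples from cells infected with the empty pNG vector. Per the labels both populations were selected with puromycin, whereas the methods also describe CRB3 in the pLNCX2 vector and G418 beside puromycin for CRB3-expressing cells with a hairpin vector. Vector and drug are given here as the labels have them. Both populations were grown in the usual MCF-10A medium with EGF and harvested as proliferating monolayers at 70% confluence. Each sample was hybridized to its own Affymetrix Human Genome U133 Plus 2.0 array, and the values below are the authors' log2 values after Robust Multichip Average (RMA) normalization. No source used here states separate infections for the replicates, so the p-values measure the spread between these samples only.

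The labels were borne out by the only CRB3 probe set, which read 12.16, 12.00 and 12.19 on the CRB3-expressing arrays and 7.90, 7.59 and 7.85 on the vector control arrays. KRT5, the keratin of basal mammary cells, had mean log2 values of 13.58 and 13.62 in the CRB3-expressing and vector control cells. Of the 6 measured epithelial and basal markers, with means over all arrays of at least 9.97, KRT14, CDH1, CDH3 and EPCAM rose, and KRT17, KRT6A and TP63 had no probe set with a single symbol. Of 8 measured markers of leukocytes, endothelium, stroma and fat, 6 had means under 6 in both groups, PECAM1 and COL1A1 being the others, and none passed the test. The average of these 8 markers lay between 5.14 and 5.30 in the CRB3-expressing arrays and between 5.20 and 5.28 in the vector control arrays.

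Dividing cells use a distinct set of kinesins. They push the spindle poles apart, hold and align the chromosomes, and build the central spindle and midbody through which the daughter cells separate, and many of their transcripts rise in G2 and mitosis under promoters that carry a cell cycle homology region (CHR) and CCAAT boxes. Transport kinesins carry vesicles, endosomes, mitochondria and ciliary cargo and are used by cells at any stage of the cycle. In a bulk sample, fewer cells in G2 and mitosis and less transcript per cell cannot be told apart.

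In CRB3-expressing cells, 4 of the 12 mitotic kinesins fell and none rose, and the log2 fold change was below 0 for all 12 (CRB3-expressing minus vector control, brightest probe set of each gene). The 4 were KIF14, KIF18A, KIF15 and KIF11, each lower by 1.27-fold to 1.47-fold. None of the 15 transport kinesins passed in its brightest probe set, and 10 of their log2 fold changes were above 0. Over all 19775 genes, 10349 log2 fold changes were above 0 and 9426 below. A gene passed the test when its adjusted p was under 0.05 in limma, with Benjamini-Hochberg adjustment over all 54613 probe sets. At that rule 1.77% of the 19775 genes were lower and 3.37% were higher. At the thresholds of the study's methods, which also ask for a fold change above 1.5, limma called 0 of the 41 kinesin genes lower (0.465% of all genes) and 0 higher (1.43% of all genes). With limma p-values left unadjusted, 9 kinesin genes were lower at p under 0.05 (8.39% of all genes) and 1 higher (10.4% of all genes). The 9 comprised 6 mitotic and 3 other kinesins, and the 1 that was higher was the transport kinesin KIF13A.

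**Figure D1:**
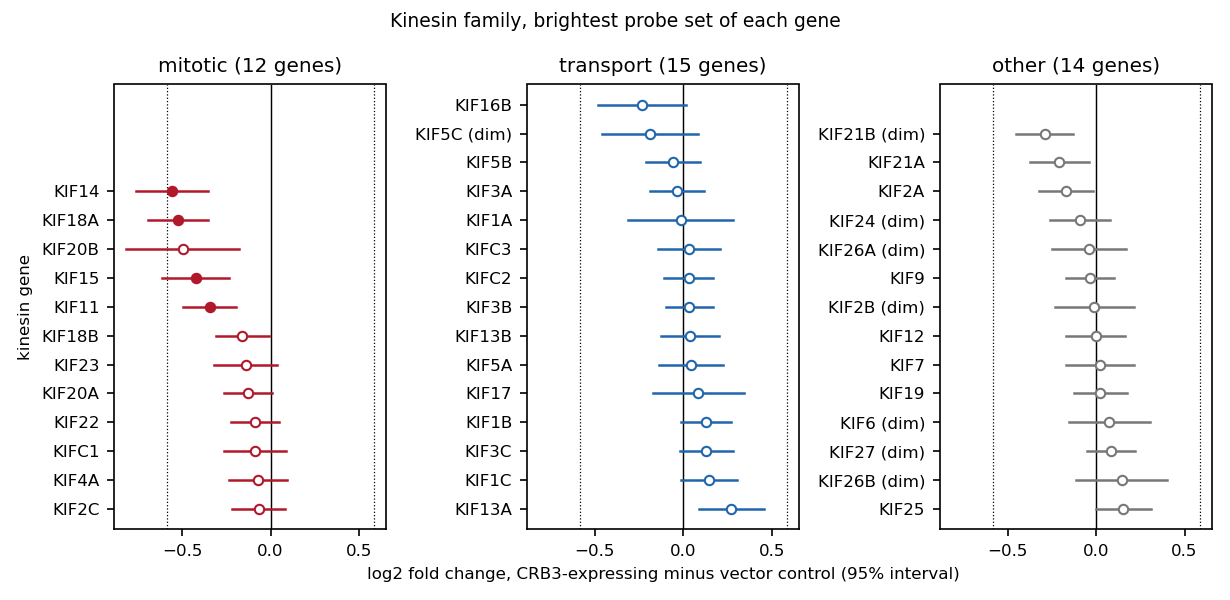
Log2 fold change (x axis, CRB3-expressing minus vector control) of the brightest probe set of each of the 41 kinesin genes (y axis), in 3 panels by class. Points are limma estimates, bars are 95% intervals, filled points have an adjusted p under 0.05, dotted lines mark a 1.5-fold change, and "dim" marks a mean log2 value under 6. The 12 mitotic kinesins all lie left of 0, and 10 of the 15 transport kinesins lie right of it. Over all 19775 genes, not drawn, 10349 were above 0.

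The promoters of the 4 mitotic kinesins that fell at an adjusted p under 0.05 are shown. Whether these genes share a regulator was not tested. Each promoter is given as the 120 bases before the annotated transcription start (RefSeq, GRCh38.p14), written 5′ to 3′ on the strand of the gene. Capitals mark the CHR core TTTGAA and the CCAAT box on either strand, which read TTCAAA and ATTGG where they lie on the opposite strand. The stretches are chr1:200620752-200620871 on the minus strand for KIF14, chr11:28108157-28108276 on the minus strand for KIF18A, chr10:92593010-92593129 on the plus strand for KIF11 and chr3:44761674-44761793 on the plus strand for KIF15.
KIF14: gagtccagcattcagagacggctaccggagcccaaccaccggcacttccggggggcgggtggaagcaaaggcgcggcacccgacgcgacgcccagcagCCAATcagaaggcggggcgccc
KIF18A: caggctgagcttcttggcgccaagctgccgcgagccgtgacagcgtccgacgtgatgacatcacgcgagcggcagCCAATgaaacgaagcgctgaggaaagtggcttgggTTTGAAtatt
KIF11: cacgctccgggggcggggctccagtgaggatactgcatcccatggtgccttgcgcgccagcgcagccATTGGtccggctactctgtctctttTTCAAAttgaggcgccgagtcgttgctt
KIF15: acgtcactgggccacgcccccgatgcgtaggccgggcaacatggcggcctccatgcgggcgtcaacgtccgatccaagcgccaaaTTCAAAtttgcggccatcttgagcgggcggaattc
The TTTGAA core begins at -10 from the transcription start in KIF18A, at -28 in KIF11 and at -35 in KIF15, and in KIF14 it lies after the start, at position 2, and is not shown. KIF14, KIF18A and KIF11 carry a CCAAT box at -22, -45 and -53, and KIF15 has none in its window. The 2 motifs do not overlap in these promoters.

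RefSeq promoter windows, from 250 bases before to 50 after the start, were matched for 33 of the 41 genes. TTTGAA, on either strand, was in 9 of the 13 windows of the 12 mitotic kinesins, in 1 of 16 windows of 11 transport kinesins, that of KIF5B, and in 0 of 13 windows of 10 other kinesins. It was in 15.2% of all 35116 windows. CCAAT was in 10 mitotic, 5 transport and 4 other kinesin windows, against 34.6% of all windows. KIF18B, KIF20B, KIF23, KIF4A and KIFC1, none of which passed the test, also hold both motifs, so the motifs did not separate the 4 genes that fell from the other mitotic members. Of 6 further patterns searched on both strands, the palindromes TTTAAA and TTCGAA were in 4 and 2 mitotic windows (12.2% and 1.45% of all windows), and TTTGGCGC was in the KIF15 window only among mitotic members (0.652% of all windows). TTTCGCGC, GGGCGGGA and GGCGGGAA, the last 2 of which overlap in their letters, were in 0 mitotic windows (0.515%, 8.16% and 3.16% of all windows). These matches describe letters in a window and are not shown to be bound sites.

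KIF14, which acts at the central spindle and midbody in cytokinesis, lies at chr1:200551497-200620751. Its brightest probe set read 9.93, 9.66 and 9.91 in CRB3-expressing cells and 10.46, 10.43 and 10.28 in vector control cells. Each CRB3-expressing array was thus lower than each vector control array. The log2 fold change was -0.56 (SE 0.089, 95% interval -0.76 to -0.36, limma adjusted p = 0.00944), a 1.47-fold difference just under the fold threshold. The other KIF14 probe set passed too, at 9.71, 9.46 and 9.51 against 9.99, 10.16 and 9.87 (log2 fold change -0.45, SE 0.096, limma adjusted p = 0.0403).

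KIF18A, a motor at the plus ends of kinetochore microtubules that restrains chromosome movement at the metaphase plate, lies at chr11:28020619-28108156. Its log2 values were 8.03, 7.82 and 7.86 in CRB3-expressing cells and 8.42, 8.48 and 8.37 in vector control cells, with no overlap. It had the smallest p of the family (log2 fold change -0.52, SE 0.074, 95% interval -0.69 to -0.35, limma adjusted p = 0.00496). Its paralog KIF18B, which shortens astral microtubules, read 9.48, 9.38 and 9.51 against 9.62, 9.67 and 9.56. These groups did not overlap either, but the log2 fold change of -0.16 (SE 0.066) did not pass (limma adjusted p = 0.279).

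KIF11, also known as Eg5, slides antiparallel microtubules to separate the spindle poles, and KIF15 helps to hold the poles apart once they are separated. KIF11 (chr10:92593130-92655395) read 10.35, 10.20 and 10.20 in CRB3-expressing cells and 10.57, 10.59 and 10.63 in vector control cells. The log2 fold change was -0.35 (SE 0.067, 95% interval -0.50 to -0.19, limma adjusted p = 0.0250). KIF15 (chr3:44761794-44868687) read 8.23, 7.99 and 7.98 against 8.42, 8.56 and 8.49. Its log2 fold change was -0.42 (SE 0.083, 95% interval -0.61 to -0.24, limma adjusted p = 0.0257). For both genes the groups did not overlap, and CRB3-expressing replicate 1 was the array nearest to the vector control arrays. Both lost the test, with adjusted p between 0.0506 and 0.109 from limma, when CRB3-expressing replicate 2 or 3 or any single vector control array was left out, whereas KIF14 and KIF18A passed without any 1 array. Without the empirical Bayes step none of the 4 passed, the adjusted p from limma being 0.133 for KIF14, 0.0797 for KIF18A, 0.0973 for KIF11 and 0.167 for KIF15.

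**Figure D2:**
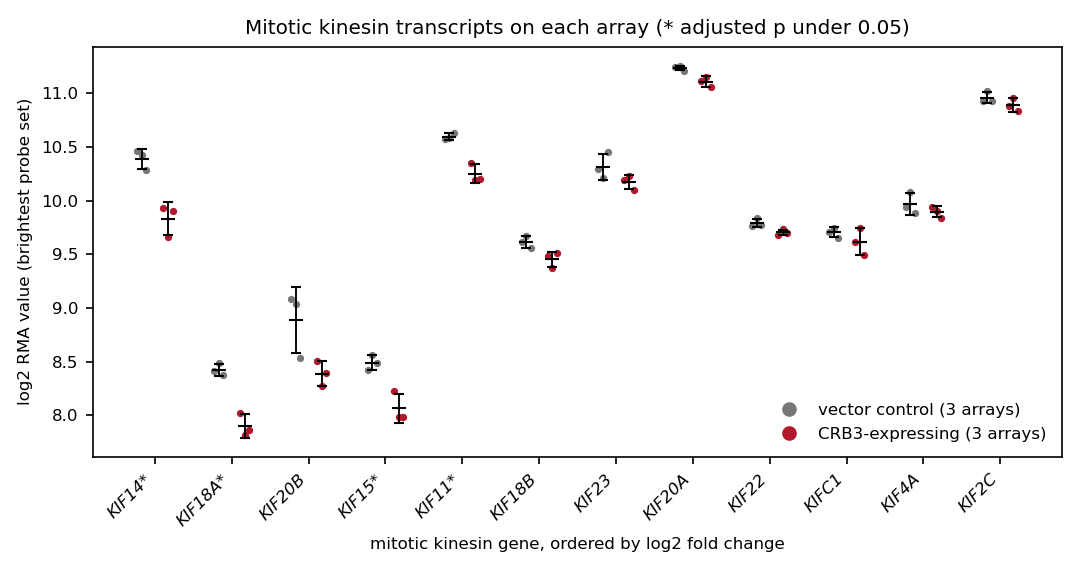
Log2 RMA value (y axis) of the brightest probe set of the 12 mitotic kinesins (x axis, ordered by log2 fold change) with vector control arrays in grey and CRB3-expressing arrays in red, 3 of each; every point is an array, black bars are the mean and SD (n = 3), and asterisks mark an adjusted p under 0.05. KIF14, at 9.83 against 10.39, and KIF18A, at 7.90 against 8.43, are well separated, while the KIF2C, KIF4A, KIF23 and KIFC1 groups overlap.

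KIF20B, a motor of late cytokinesis, had a log2 fold change of -0.50, close to those of the members that passed, but did not pass (SE 0.14, 95% interval -0.82 to -0.18, limma adjusted p = 0.107). It read 8.50, 8.27 and 8.39 in CRB3-expressing cells and 9.09, 9.04 and 8.53 in vector control cells. Vector control replicate 3 lay next to the CRB3-expressing arrays. Without it the log2 fold change was -0.67 (limma adjusted p = 0.00619). Leaving out any other single array gave a limma adjusted p between 0.158 and 0.295. Of 15 alternative fits and probe set choices, KIF20B passed in 2. The 2 dimmer KIF20B probe sets, at means of 4.26 and 3.90 in CRB3-expressing cells, had log2 fold changes of 0.056 and 0.11 that did not pass, at levels that may be background.

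KIF20A and KIF2C, the mitotic kinesins with the highest mean log2 values, had small differences in their brightest probe sets. KIF20A, which brings PLK1 to the central spindle, read 11.12, 11.15 and 11.05 against 11.24, 11.25 and 11.21 (log2 fold change -0.13, SE 0.060, limma adjusted p = 0.343), without overlap. KIF2C, a depolymerase that frees wrongly attached kinetochores, read 10.88, 10.96 and 10.83 against 10.93, 11.02 and 10.93 (log2 fold change -0.068), with overlap. The other KIF2C probe set, at means of 9.999 and 10.19, had a log2 fold change of -0.19 without overlap (SE 0.060, limma adjusted p = 0.150). KIF23, which forms the centralspindlin complex with RACGAP1, read 10.19, 10.23 and 10.10 against 10.29, 10.21 and 10.45 (log2 fold change -0.14), also with overlap. KIF22 and KIF4A, which bind chromosome arms, and KIFC1, a minus-end motor that focuses spindle poles, had log2 fold changes between -0.089 and -0.070, and none passed. In the other KIF22 probe set the difference was -0.20 on the log2 scale, without overlap (SE 0.059, limma adjusted p = 0.121). The KIF4A transcript is close in sequence to that of KIF4B, and the probe set was not shown to tell them apart.

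Across the 12 mitotic kinesins the median log2 fold change was -0.15, against 0.0066 over all genes. The groups did not overlap, with the CRB3-expressing arrays lower, for 8 of the 12, against 12.1% of all genes. The average over the 12 was 9.66, 9.59 and 9.57 on the CRB3-expressing arrays and 9.87, 9.91 and 9.81 on the vector control arrays. Of the 12, 11 lay below all vector control arrays on CRB3-expressing replicate 1, 8 on replicate 2 and 12 on replicate 3. The same counts were 7, 4 and 5 for the 14 other kinesins and 1, 4 and 2 for the 15 transport kinesins. For single arrays the share over all genes was not taken, so these counts have no baseline. KIF14, KIF18A, KIF15 and KIF20B had 95% intervals that reach past a 1.5-fold decrease, while the intervals of the other 8 lay within 1.5-fold on both sides. Of the 18 mitotic probe sets, 5 passed, all lower (1.39% of all probe sets), and all 16 with a mean of at least 6 had a log2 fold change below 0.

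Among transport kinesins, KIF5B, the widely expressed heavy chain of conventional kinesin, read 11.58, 11.45 and 11.50 in CRB3-expressing cells and 11.58, 11.63 and 11.50 in vector control cells. The log2 fold change of -0.060 had a 95% interval of -0.21 to 0.09 (limma adjusted p = 0.722). Its other probe sets had log2 fold changes of -0.15 and -0.21 and did not pass. KIF3B, which pairs with KIF3A in ciliary and vesicle transport, read 9.72, 9.70 and 9.78 against 9.68, 9.71 and 9.71 (log2 fold change 0.034, 95% interval -0.10 to 0.17). KIF3A had a log2 fold change of -0.037 and KIF3C, another partner, one of 0.13, and neither passed.

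KIF13A, a motor of recycling endosomes, had the smallest p among the brightest probe sets of transport kinesins. It read 9.34, 9.26 and 9.15 in CRB3-expressing cells and 8.89, 9.11 and 8.95 in vector control cells, without overlap. The log2 fold change of 0.27 (SE 0.081, 95% interval 0.09 to 0.45) did not pass (limma adjusted p = 0.130). Of its 5 other probe sets, all dimmer, 4 had log2 fold changes between 0.007 and 0.35 and 1 had -0.15, and none passed.

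KIF1C, which moves integrin-containing and other vesicles, gave different answers in its 2 bright probe sets. The brighter one read 9.02, 9.15 and 9.18 against 9.04, 8.91 and 8.97 (log2 fold change 0.14, SE 0.070, limma adjusted p = 0.357), with overlap. The other read 8.95, 9.05 and 8.90 against 8.51, 8.59 and 8.59, without overlap. Its log2 fold change was 0.40 (SE 0.066, limma adjusted p = 0.0112), and it was the only 1 of the 39 transport probe sets that passed (2.24% of all probe sets were higher). The third, at means under 5, had a log2 fold change of 0.083. KIF1B, a carrier of mitochondria and vesicle precursors, read 9.76, 9.74 and 9.72 against 9.55, 9.67 and 9.62 (log2 fold change 0.13, SE 0.062, limma adjusted p = 0.363), without overlap.

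KIF16B, a motor of early endosomes, read 7.12, 6.81 and 6.93 in CRB3-expressing cells and 7.04, 7.14 and 7.39 in vector control cells. The log2 fold change of -0.23 (SE 0.11, 95% interval -0.48 to 0.01) did not pass (limma adjusted p = 0.340), and the groups overlapped. KIF13B, a partner of the polarity protein DLG1, and KIFC3, a minus-end motor linked to apical transport and adherens junctions, had log2 fold changes of 0.036 and 0.030. KIF1A, KIF5A, KIF5C and KIF17, best known from neurons, and KIFC2 ranged from -0.19 to 0.085 in log2 fold change without passing. The KIF5C values were under 6 in both groups.

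Over the 15 transport kinesins the median log2 fold change was 0.034. The groups did not overlap for 3, all higher (14.5% of all genes), and 95% intervals of the brightest probe sets lay within 1.5-fold on both sides for all 15. Dimmer probe sets of KIFC2 (-0.11 to 0.60) and KIF13A (0.12 to 0.59) had intervals that reach past a 1.5-fold increase. Their average was 7.956, 7.963 and 7.959 on the CRB3-expressing arrays and 7.934, 7.969 and 7.896 on the vector control arrays. The averages of the transport class thus lay within the range of the controls, while those of the mitotic class lay apart. No test of the difference between the classes was made.

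**Figure D3:**
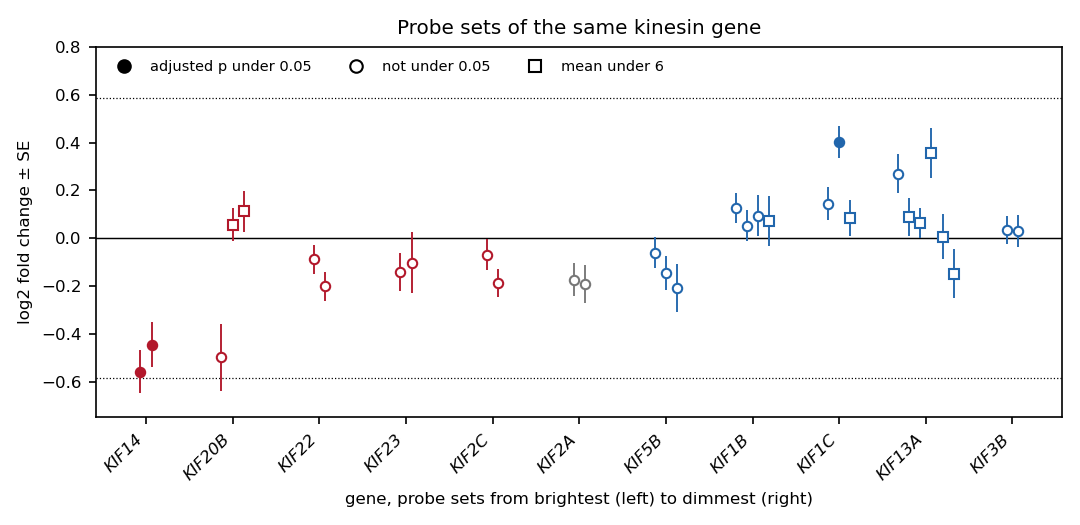
Log2 fold change ± SE (y axis, CRB3-expressing minus vector control) of every probe set of 11 kinesin genes (x axis), ordered by brightness within a gene; red marks mitotic, blue transport and grey other kinesins, filled symbols have an adjusted p under 0.05, squares have a mean log2 value under 6, and dotted lines mark a 1.5-fold change. Both KIF14 probe sets pass, at -0.56 and -0.45, and 1 of the 3 of KIF1C passes, at 0.40.

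The other kinesins included 7 genes with means under 6 in both groups, at which expression was not shown. KIF2A, a depolymerase with roles at spindle poles and in neurons, read 9.86, 9.75 and 9.74 in CRB3-expressing cells and 9.88, 9.99 and 10.001 in the controls (log2 fold change -0.17, SE 0.067, limma adjusted p = 0.245), without overlap. KIF21A, which restrains microtubule growth at the cell cortex, read 9.46, 9.26 and 9.29 against 9.52, 9.62 and 9.50 (log2 fold change -0.21, SE 0.074, limma adjusted p = 0.205), again without overlap. Its paralog KIF21B read 5.07, 5.03 and 5.06 against 5.46, 5.24 and 5.32. Its log2 fold change was -0.29 (SE 0.072, limma adjusted p = 0.0682), at levels not shown to be above background.

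The remaining 11 had log2 fold changes between -0.093 and 0.15 and did not pass. They comprise KIF6, KIF7, KIF9, KIF19 and KIF27, linked to cilia, the centriolar KIF24, KIF26A and KIF26B, whose motor domains do not hydrolyse ATP, and KIF2B, KIF12 and KIF25. KIF25 was the highest of these (log2 fold change 0.15, SE 0.068), in a probe set that can bind unrelated transcripts. Over the 14 the median was -0.0065, and all 95% intervals of the brightest probe sets lay within 1.5-fold.

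A pair of kinesins carry other symbols and are not counted above. CENPE, the kinetochore kinesin that carries chromosomes to the metaphase plate, read 8.22, 7.81 and 8.21 in CRB3-expressing cells and 9.19, 9.08 and 8.36 in vector control cells in its 1 probe set. Its log2 fold change of -0.80 was larger than that of any KIF gene, but its SE was 0.20 and it did not pass (limma adjusted p = 0.0789). As for KIF20B, vector control replicate 3 lay closest to the CRB3-expressing arrays. STARD9, a centrosomal kinesin, had a log2 fold change of -0.15 at means under 6 and did not pass.

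The partners of mitotic kinesins leaned the same way on these arrays. Of 24 measured genes of the spindle, its checkpoint and cytokinesis, 4 fell and 0 rose at an adjusted p under 0.05, and all 24 log2 fold changes were below 0, with a median of -0.16. The 4 were ASPM, a spindle pole protein (-0.54, SE 0.098), HMMR, which tethers microtubules at the poles (-0.40, SE 0.077), CDK1, the mitotic cyclin-dependent kinase (-0.30, SE 0.064), and CENPF, which binds kinetochores and the nuclear envelope (-0.52, SE 0.12). Their limma adjusted p were 0.0180, 0.0251, 0.0366 and 0.0491, in that order. For ASPM and CENPF, as for KIF20B and CENPE, vector control replicate 3 lay closest to the CRB3-expressing arrays. CENPF read 11.44, 11.38 and 10.97 on the vector control arrays. With limma p-values left unadjusted, 12 were lower at p under 0.05 and 0 higher. Over all genes, as above, 1.77% were lower at an adjusted p under 0.05, and 8.39% were lower and 10.4% higher at an unadjusted p under 0.05. Log2 fold changes below 0 were found for 9426 of the 19775 genes. Of 18 measured DNA replication genes, 0 passed in limma at an adjusted p under 0.05, and 7 were lower and 0 higher at an unadjusted p under 0.05. Their median log2 fold change was -0.090, and POLE2, MCM4 and MCM3, which had the smallest p, had -0.19, -0.19 and -0.16. Of the 18 replication genes, 15 had log2 fold changes below 0. The groups did not overlap for 11 that were lower (12.1% of all genes) and 1 that was higher (14.5% of all genes). Spindle and replication genes share the cell cycle with the mitotic kinesins, and the part of cell cycle stage in these differences was not tested.

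Genes that work with transport kinesins did not pass either. Of 11 measured kinesin light chains and adaptors, 0 passed in limma at an adjusted p under 0.05 and 1 was lower at an unadjusted p under 0.05, a share near the 8.39% of all genes. That was TRAK1, an adaptor for mitochondria (log2 fold change -0.26, SE 0.070, limma adjusted p = 0.0889), followed by the adaptor MAPK8IP3 at 0.20 and the light chain KLC2 at -0.14. The median of the list was -0.0075. Of 21 genes of cytoplasmic dynein and dynactin, the motor complex that moves toward microtubule minus ends, 0 passed in limma, and 2 were higher and 0 lower at an unadjusted p under 0.05, where 10.4% of all genes were higher. ACTR10 and DCTN2, subunits of dynactin, and DYNLT3, a dynein light chain, had log2 fold changes of 0.23, 0.18 and 0.17, and the median of the list was 0.046. Of the 21, 16 had log2 fold changes above 0, as had 10349 of all 19775 genes. The groups did not overlap for 7 that were higher (14.5% of all genes) and 1 that was lower (12.1% of all genes).

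**Figure D4:**
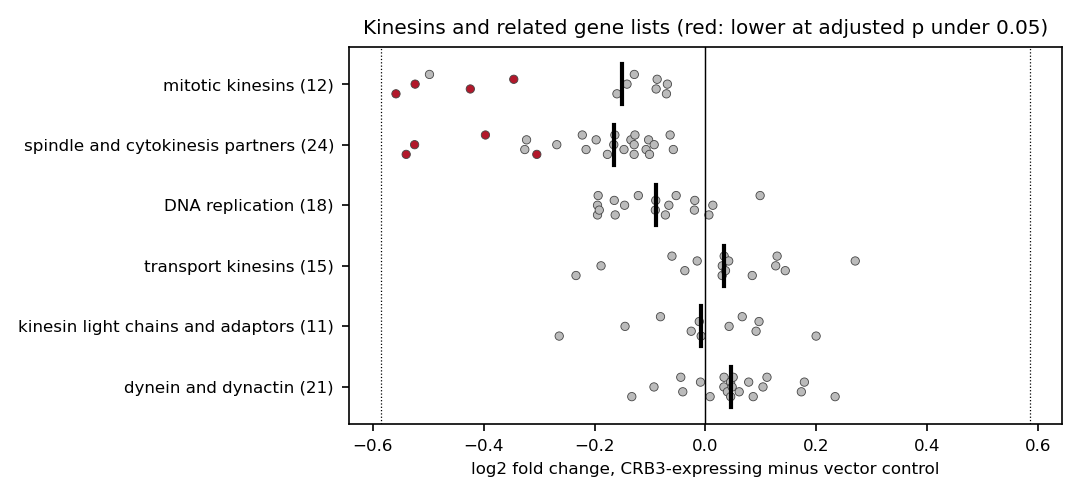
Log2 fold change (x axis, CRB3-expressing minus vector control) of the measured genes of 6 lists (y axis, number of genes in parentheses), 1 point per gene; red points are lower at an adjusted p under 0.05, grey points did not pass, black bars are medians and dotted lines mark a 1.5-fold change. The mitotic kinesins (median -0.15) and their spindle and cytokinesis partners (median -0.16) lie left of 0, each with 4 red points. Of the DNA replication genes (median -0.090), 15 of 18 lie left of 0. To the right of 0 lie 10 of 15 transport kinesins (median 0.034) and 16 of 21 dynein and dynactin genes (median 0.046).

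Apart from KIF4A, the mitotic kinesins with the smaller differences span less of the genome than those with the larger ones. KIF14, KIF18A, KIF20B, KIF15 and KIF11, with log2 fold changes from -0.56 to -0.35, have RefSeq gene spans of 69.3, 87.5, 73.3, 107 and 62.3 kb. Of the other 7, KIF4A spans 131 kb with a log2 fold change of -0.070, and the rest span 8.61 to 34.1 kb. Spearman's rho between span and log2 fold change was -0.41 over the 12 genes and -0.078 over the 24 spindle and cytokinesis partners. It was -0.39 over the 21 dynein and dynactin genes. Over transport kinesins, other kinesins, DNA replication genes and light chains and adaptors it lay between -0.11 and 0.20. Between mean log2 value and log2 fold change, rho was 0.46 over the 12 mitotic kinesins. These values describe genes read on the same 6 arrays, and the part of span or level was not tested. As a measure of RNA integrity, GAPDH and ACTB were read by control probe sets at both transcript ends, and these ends differed by -0.00857 to 0.0855 on the log2 scale across arrays. The ACTB difference was 0.0282, -0.00857 and 0.0226 on the CRB3-expressing arrays and 0.0452, 0.0721 and 0.0855 on the vector control arrays, without overlap, while the GAPDH groups overlapped. The part of RNA integrity in the kinesin differences was not tested.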

How the data were processed

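The authors corrected the background and normalized 6 Affymetrix Human Genome U133 Plus 2.0 arrays in R by Robust Multichip Average. The deposited log2 values number 1 for each probe set on each array. These values were used as they stand. Versions of those tools are not given in the sources used here. Array medians lay between 5.84 and 5.88, there are no detection calls, and precision is limited by having 3 arrays in each group. A mean under 6 was treated as not shown to be above background.

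Differences were taken as CRB3-expressing minus vector control in a limma fit (version 3.58.1, R 4.3.3, empirical Bayes) after 62 array control probe sets were left out, and steps were tested on simulated data. There, of 100 probe sets with a true log2 change of 0.4, 55% had an adjusted p under 0.05 and 3% also passed the fold threshold. With a true change of 1, 100% passed both. Members that did not pass are thus not shown to be unchanged. Symbols came from the platform annotation, 41091 probe sets having 1, and 0 changed when matched by Entrez identifier to RefSeq (GRCh38.p14). A gene was read in its brightest probe set by the mean over all arrays.

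Members, classes and gene lists were chosen with earlier results of these data known. Array values are given for genes that passed, the 5 brightest mitotic and transport members and the 3 smallest p of each class, with 3 genes for each other list. KIF18B, KIF20B and CENPE were named outside this rule after their values were seen. Alternatives covered the variance model, normalization, dim probe sets, array weights, the choice of probe set, thresholds, the replicate block and leaving out each array.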

Additional observations from a re-analysis of the deposited data

How the results depend on the processing

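All 12 mitotic kinesins had a log2 fold change below 0 under each of the 16 alternative fits and probe set choices (8 of 8 where shared probe sets were left out), with medians from -0.16 to -0.14, and the transport median stayed between 0.010 and 0.056. The replicate block, the trend and robust prior, the fit without the empirical Bayes step and the dim probe set filters left the mitotic log2 fold changes unchanged. Their sign could not differ there, so these settings do not check the direction. Leaving out shared probe sets kept the main fit, and of the mitotic members kept only KIF23 was read in another probe set (log2 fold change -0.10). That setting does not check the direction for the rest. The 4 genes that fell at an adjusted p under 0.05 became 5 with a trend and robust prior (KIF20B added) and with probe sets of mean above 5 or the mean over probe sets (KIF21B added), and 3 with shared probe sets left out, where KIF18A has no value. With the replicate block 2 passed, KIF14 and KIF18A, and without the empirical Bayes step 0 did. Leaving out single arrays gave 2 to 4 genes. Without CRB3-expressing replicate 1 the same 4 passed, and without any other array KIF11 and KIF15 were lost, with KIF20B passing in addition without vector control replicate 3. At an unadjusted p 9 were lower and 1 was higher. The cause was not tested. With both thresholds, 4 were lower at a fold change above 1.2, and leaving out single arrays gave 0 to 2: KIF14 and KIF18A without CRB3-expressing replicate 1, KIF14 without CRB3-expressing replicate 3, and KIF14 and KIF20B without vector control replicate 3. Of transport kinesins, 1 was higher at an adjusted p under 0.05 with a trend and robust prior (KIF13A), with the mean over probe sets or with shared probe sets left out (both KIF1C). Replicate numbers were not used as pairs in the main fit. Deviations of same-numbered arrays from their group means correlated at -0.085, 0.064 and 0.029 across probe sets. CRB3-expressing replicates 1 and 2 both correlated best with vector control replicate 2, and replicate 3 with vector control replicate 1. With 3 arrays in each group these correlations cannot exclude that same-numbered samples were handled together.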
